A study of Homo sapiens with 5 samples.

Results

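RNA polymerase II (RNAPII) was described at 33 ribosomal protein genes, 15 cytosolic (RPL and RPS) and 18 mitochondrial (MRPL and MRPS), of 9767 genes with a transcription start site (TSS) measured in 3 ChIP-seq libraries. Members were taken by symbol, RPL, RPS, MRPL or MRPS followed by a number and at most 1 letter (A, X or L), and each had a single listed TSS. The symbol rule itself used no measured value, but it was chosen with earlier results of these data known. RNAPII had been mapped with antibodies to its largest subunit (RPB1) in RPE1, a human retinal pigment epithelial cell line immortalised with hTERT. The series compares cells lacking CFAP20, a protein named for cilia and flagella, with or without CCNC (cyclin C, a subunit of the Mediator kinase module), with cells that retain both genes. All groups were untreated and shared the parental line RPE1 iCas9 p53/puro-dKO, which lacks p53 and the puromycin resistance gene and carries, by its name, an inducible Cas9. The groups were CFAP20/CCNC-dKO (1 library), CFAP20-KO (1 library) and WT (3 libraries). Of the WT libraries, replicate 1 covered TSSs, and all 3 replicates covered the surroundings of replication origins. The sources used here do not give whether each knockout line was 1 clone. Both knockout libraries were labelled with the RPB1 antibody Bethyl A304-405A and the WT libraries with Active Motif 61686, which is also the number given for the spike-in antibody, so in comparisons with WT the genotype and the antibody cannot be told apart. The spike-in was Drosophila chromatin, with 32.6 ng added to the 22 µg of chromatin from CFAP20/CCNC-dKO and 40 ng to the 28 µg from CFAP20-KO and from WT.

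Cytosolic ribosomes are built from ribosomal RNAs and a fixed set of RPL (large subunit) and RPS (small subunit) proteins, whose genes are among the most strongly transcribed in dividing cells. Their mRNAs typically begin with a C followed by a run of pyrimidines, the terminal oligopyrimidine motif through which mTOR and LARP1 control translation. MRPL and MRPS proteins form the separate ribosome of mitochondria, which translates the few mRNAs of the mitochondrial genome; they are encoded in the nucleus by genes of moderate activity, and factors of the NRF1 and ETS families are known to act at promoters of nuclear genes for mitochondria.

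The annotated starts of 12 members whose RNAPII values are described below are shown, because the pyrimidine run at the start differs between the classes. Sequences are from RefSeq (GRCh38.p14), 30 bases before and 30 bases from the start nearest to the listed TSS or, where a gene had several starts, from the start with the longest run. Capitals mark the longest run of C and T between -10 and +20.
RPS24: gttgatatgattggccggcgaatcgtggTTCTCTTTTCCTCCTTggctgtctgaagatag
RPS14: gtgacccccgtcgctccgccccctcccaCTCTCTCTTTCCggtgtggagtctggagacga
RPL11: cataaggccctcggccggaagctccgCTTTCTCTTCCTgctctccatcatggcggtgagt
RPL26: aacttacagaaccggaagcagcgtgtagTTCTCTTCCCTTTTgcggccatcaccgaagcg
RPL35A: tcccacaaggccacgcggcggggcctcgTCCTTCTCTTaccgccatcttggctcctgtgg
RPL22: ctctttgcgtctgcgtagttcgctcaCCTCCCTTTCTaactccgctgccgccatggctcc
RPL37A: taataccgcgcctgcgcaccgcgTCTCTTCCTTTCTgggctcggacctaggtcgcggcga
RPS4X: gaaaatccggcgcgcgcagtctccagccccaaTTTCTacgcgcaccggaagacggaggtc
MRPL16: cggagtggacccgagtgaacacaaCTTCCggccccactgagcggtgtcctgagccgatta
MRPS30: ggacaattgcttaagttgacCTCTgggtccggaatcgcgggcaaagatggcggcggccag
MRPS5: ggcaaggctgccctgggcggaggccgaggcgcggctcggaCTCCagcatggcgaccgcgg
MRPS33: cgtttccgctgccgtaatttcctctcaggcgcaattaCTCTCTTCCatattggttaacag
The cytosolic stretches lie at chr10:78033833-78033892 on the plus strand for RPS24, chr5:150449710-150449769 on the minus strand for RPS14, chr1:23691776-23691835 on the plus strand for RPL11, chr17:8383164-8383223 on the minus strand for RPL26, chr3:197950160-197950219 on the plus strand for RPL35A, chr1:6199566-6199625 on the minus strand for RPL22, chr2:216498814-216498873 on the plus strand for RPL37A and chrX:72277219-72277278 on the minus strand for RPS4X. The mitochondrial stretches lie at chr11:59810749-59810808 on the minus strand for MRPL16, chr5:44808917-44808976 on the plus strand for MRPS30, chr2:95121779-95121838 on the minus strand for MRPS5 and chr7:141014650-141014709 on the minus strand for MRPS33.

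A run of at least 8 pyrimidines was present in 11 of 14 cytosolic members with a RefSeq promoter (78.6%) and in 1 of 15 mitochondrial members (6.67%), against 15.4% of all 27305 genes in the RefSeq table. The median longest run was 11.5 bases in cytosolic members, 4 in mitochondrial members and 5 in all genes. Within that window RPS24 had the longest run, 16 bases; runs are cut at its edges, and that of RPL27 goes on past +20. RPL6, RPS27L and RPS4X were the cytosolic members without such a run, and MRPS33 was the mitochondrial member with one. RPL39L, MRPL15, MRPL23 and MRPS36 were not matched. In the 300 bases around the start, searched on both strands, the ETS motif CCGGAAGT was found in 3 of 14 cytosolic and 1 of 15 mitochondrial members, against 4.95% of all genes. The YY1 motif AAGATGGCG was found in RPL35A among cytosolic members and in 3 of 15 mitochondrial members, against 2.14% of all genes. It was present in MRPL22, MRPS10 and MRPS30. The E-box CACGTG was found in RPL19 and in 4 of 15 mitochondrial members, against 8.77%, and the SP1 motif GGGCGG in 7 of 14 cytosolic and 9 of 15 mitochondrial members, against 48.3%. The NRF1 core GCGCATGC was found in MRPL22 alone among the members, against 3.68% of all genes. The motif TCTCGCGA was found in RPL26 alone, against 1.37%. TATAAA was found in none of the 29 members with a RefSeq promoter and in 13.99% of all genes. A match is a description of letters and shows no binding.

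Values are the deposited spike-in normalized coverage, here called density. Promoter density is the mean from -200 to +500 bp of the listed TSS, gene body density runs from +1000 bp to the gene end or +5000 bp, and flank density averages both sides between 2000 and 4500 bp. Over all TSS windows, equivalent fragments in CFAP20/CCNC-dKO and CFAP20-KO came to 17.5% and 12.5% of those in WT, and isolated fragments covered 319, 298 and 145 bp in CFAP20/CCNC-dKO, CFAP20-KO and WT. In comparisons with WT, genotype therefore cannot be told apart from depth and fragment length either. Median flank density over all genes was 0.367, 0.367 and 0.359 in the same libraries. CFAP20 and CCNC had no TSS among those analysed here, so neither knockout was checked at its target. Of the RPE1 marker genes, 3 of 7 were measured, with a median promoter density of 6.43, 9.33 and 7.81 in CFAP20/CCNC-dKO, CFAP20-KO and WT. Markers of blood, neuron and liver, 5 of 8 measured, had medians of 0.362, 0.217 and 0.318. The medians hide a spread in both lists. The neuron marker SNAP25 had 0.121, 0.150 and 1.05, and the RPE1 marker TGFBI 0.692, 1.83 and 1.18. A median cytosolic member rested on 38.4 equivalent fragments in CFAP20/CCNC-dKO, 34.7 in CFAP20-KO and 239 in WT, and a median mitochondrial member on 21.2, 17.4 and 188. Because each genotype had a single TSS library, differences between genotypes have no replicate check, were not tested and carry no p-value. Each single-gene ratio is given with a 95% Clopper-Pearson interval computed on these fragments, which covers counting error only. Many ribosomal protein genes have processed pseudogenes, and the sources used here do not give how reads matching both were treated, so exonic coverage of cytosolic members is uncertain.

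The members measured are a minority of their families. GENCODE 44 lists 77 cytosolic and 76 mitochondrial protein-coding genes with names of this form, of which 62 cytosolic and 58 mitochondrial genes were not analysed here. Of these, 13 cytosolic and 10 mitochondrial genes are shorter than the shortest listed gene, 3002 bp. Every listed TSS of a member lay within 1000 bp of a GENCODE start of its gene. Another gene starting in the opposite direction within 1000 bp upstream was annotated for RPL26, RPL35A and RPS7 among cytosolic members and for MRPL37, MRPL40 and MRPS30 among mitochondrial members, against 7.86% of all genes. In a few members the RefSeq start lay well downstream of the listed TSS, by 655 bp in RPL37A, 643 bp in MRPL40, 356 bp in RPL6, 325 bp in RPS27L, 310 bp in MRPL1 and 203 bp in RPL35A.

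Both classes carried more promoter RNAPII than most genes, and 31 of 33 members lay above the median promoter density of all genes. Cytosolic members had a median promoter density of 1.93 in CFAP20/CCNC-dKO, 2.67 in CFAP20-KO and 2.20 in WT. Mitochondrial members had medians of 1.06, 1.335 and 1.73 in the same order of libraries, and all genes 0.428, 0.451 and 0.408. The median cytosolic member stood at percentile 94.9 of all genes in CFAP20/CCNC-dKO, 94.2 in CFAP20-KO and 92.4 in WT, and the median mitochondrial member at percentile 81.7, 79.4 and 86.6. In WT the classes overlapped, with quartiles of 1.93 and 2.69 for cytosolic and 1.45 and 2.15 for mitochondrial members.

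**Figure D1:**
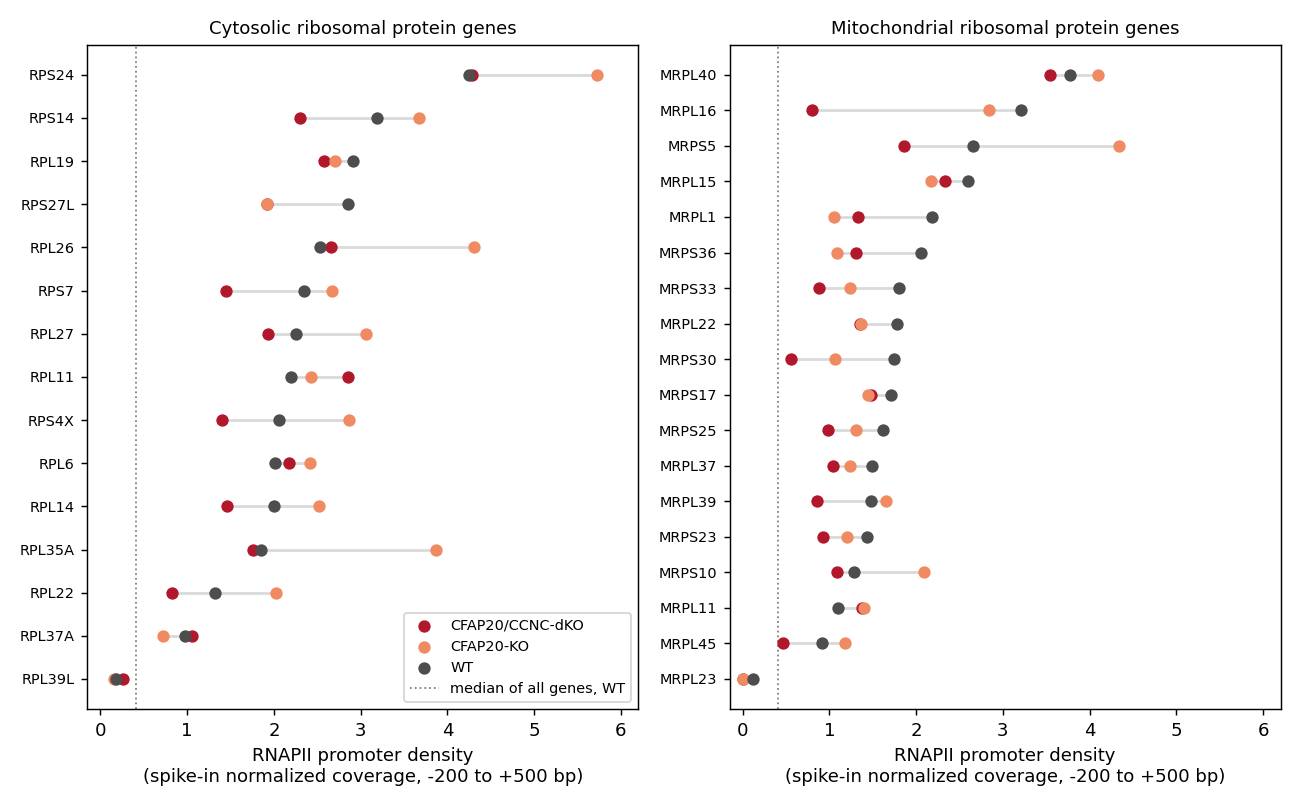
RNAPII promoter density of each cytosolic (left) and mitochondrial (right) ribosomal protein gene in CFAP20/CCNC-dKO, CFAP20-KO and WT cells, 1 library each, in spike-in normalized coverage units; the dotted line is the WT median of all genes (0.408). RPS24 is highest in all 3 libraries among cytosolic members, and RPL39L and MRPL23 lie left of the line.

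Among cytosolic members, RPS24, a small subunit protein whose mutation causes Diamond-Blackfan anaemia, had the highest promoter density, 4.28 in CFAP20/CCNC-dKO, 5.73 in CFAP20-KO and 4.25 in WT. RPS14, the small subunit gene deleted in the 5q- syndrome, had 2.30, 3.67 and 3.19. RPL19, of the large subunit, had 2.58, 2.70 and 2.91, values close to each other in all 3 libraries. RPL26, which sits near the exit of the peptide tunnel, had 2.65, 4.31 and 2.53, high in CFAP20-KO and nearly equal in the other libraries. RPS27L, a paralog of RPS27 known as a p53 target, had 1.93 in CFAP20/CCNC-dKO, 1.92 in CFAP20-KO and 2.85 in WT, lower in both knockout libraries. Like all groups, these WT cells lack p53.

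The lowest cytosolic members in WT were RPL22, RPL37A and RPL39L. RPL22 had 0.828, 2.02 and 1.32 in CFAP20/CCNC-dKO, CFAP20-KO and WT. RPL37A had 1.05, 0.725 and 0.979, but this window ends before its RefSeq start, and its highest density lay at 690, 700 and 700 bp in the 3 libraries. Measured on the RefSeq start, whose pyrimidine run is shown above, RPL37A had 2.42, 3.39 and 3.73, so CFAP20/CCNC-dKO was then the lowest of the 3 libraries and not the highest. RPL39L, a paralog of RPL39 expressed mainly in testis, had 0.263, 0.155 and 0.182, below the median of all genes in every library. RPS4X, the X-linked small subunit gene, had 1.40, 2.87 and 2.06.

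MRPL40 had 3.54 in CFAP20/CCNC-dKO, 4.09 in CFAP20-KO and 3.77 in WT, the highest of the mitochondrial members except in CFAP20-KO. That window also ends before the RefSeq start, on which it had 2.33, 2.71 and 3.40. MRPL16, of the large subunit, had 0.805, 2.84 and 3.21, low in CFAP20/CCNC-dKO and high in the others. MRPS5, a small subunit protein whose bacterial counterpart lies at the mRNA entry, had 1.86, 4.33 and 2.66, with CFAP20-KO highest. MRPL15 had 2.34, 2.17 and 2.60. MRPL1, whose bacterial counterpart forms the mobile L1 stalk, had 1.331, 1.05 and 2.19, lower in both knockout libraries than in WT.

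At the low end, MRPL11 had 1.37 in CFAP20/CCNC-dKO, 1.40 in CFAP20-KO and 1.10 in WT. MRPL45, which anchors the mitochondrial ribosome to the inner membrane, had 0.467, 1.18 and 0.914. MRPL23 had 0 in both knockout libraries and 0.123 in WT, where it rested on 13.4 equivalent fragments, and its density from -1000 to -300 bp was 0 in all 3 libraries. A difference at MRPL23 was not detectable at this depth, since the counting interval of its ratio to WT reached 1.73 for CFAP20/CCNC-dKO and 2.65 for CFAP20-KO.

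In WT the classes differed more in the gene body and in nascent RNA than at the promoter. Median gene body density of cytosolic members was 0.805 in CFAP20/CCNC-dKO, 0.995 in CFAP20-KO and 0.825 in WT, against 0.476, 0.472 and 0.418 in mitochondrial members and 0.369, 0.374 and 0.363 in all genes. BrU-seq follows nascent RNA labelled with bromouridine, and the authors' deposited WT value per gene body, which has no error and no stated scale, had a median of 97.0 in cytosolic members, 6.15 in mitochondrial members and 0.591 in 6299 genes with a value. Per unit of WT promoter density, the median BrU-seq value was 44.8 in cytosolic and 3.71 in mitochondrial members. Genes outside both classes above the 95th percentile of BrU-seq had a median WT gene body density of 0.752 over 299 genes, near the cytosolic median. Median gene length was 5898 bp in cytosolic and 12533 bp in mitochondrial members, and its part in these differences was not tested. Cytosolic values ranged from 0.729 in RPL39L to 338 in RPL19, and mitochondrial values from 0.633 in MRPL1 to 29.0 in MRPL11. RPS27L stood apart from the other cytosolic genes above the median density, with a BrU-seq value of 7.89 beside a WT promoter density of 2.85. MRPL1 had a WT promoter density of 2.19 and the lowest BrU-seq value of the 33 members.

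**Figure D2:**
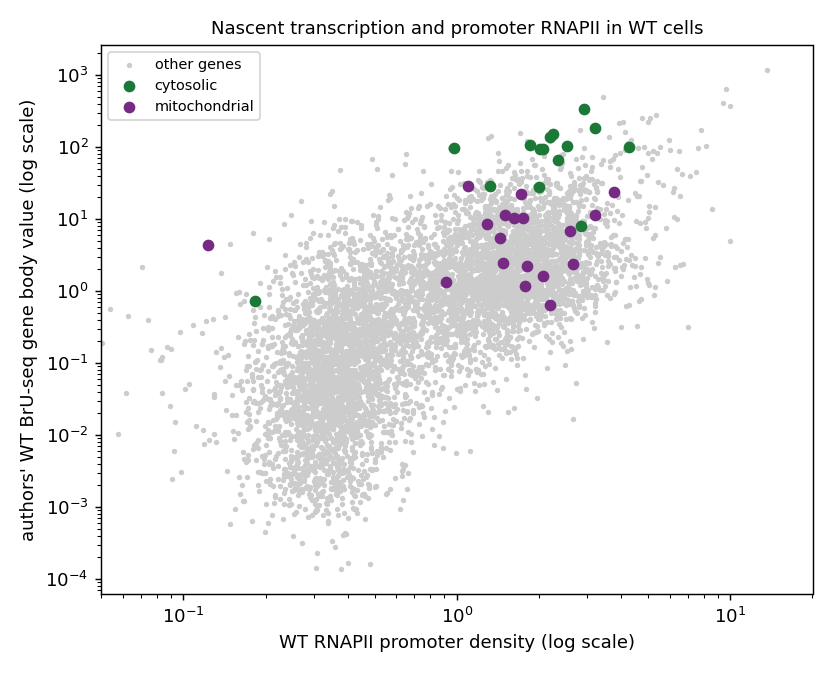
The authors' WT BrU-seq gene body value against WT RNAPII promoter density, both on log scales, for cytosolic and mitochondrial ribosomal protein genes and other genes, 1 point per gene. Genes below a density of 0.05 or with a BrU-seq value of 0 are not drawn (6213 of 6266 other genes are). Most cytosolic members lie at the top with a median BrU-seq value of 97.0 (RPS27L and RPL39L lie lower), and mitochondrial members have a median of 6.15.

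Across genes of the WT library, BrU-seq and promoter density had a Spearman rho of 0.70 over 6299 genes, 0.48 over the 15 cytosolic and -0.01 over the 18 mitochondrial members. For gene body density rho was 0.65, 0.74 and 0.16. These are descriptions across genes of 1 library, which are not independent replicates. The median log2 ratio of promoter to gene body density was 1.06 in CFAP20/CCNC-dKO, 1.35 in CFAP20-KO and 1.37 in WT for cytosolic members, and 1.23, 1.53 and 1.90 for mitochondrial members. All genes had 0.28, 0.39 and 0.23.

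The first comparison with WT addresses what loss of both CFAP20 and CCNC does to RNAPII at these genes. Nearly all mitochondrial members had less promoter RNAPII in CFAP20/CCNC-dKO than in WT, while cytosolic members lay on either side. The median log2 ratio of CFAP20/CCNC-dKO to WT was -0.17 in cytosolic and -0.62 in mitochondrial members, a difference of 0.44, against -0.22 in all genes and -0.24 in genes above the median density. Density was higher in CFAP20/CCNC-dKO by any amount in 6 of 15 cytosolic and 1 of 18 mitochondrial members, against 36.6% of all genes. RPL37A is among the 6 and was lower when measured on its RefSeq start. Genes above the 95th percentile of BrU-seq, with members left out, had a median of -0.44 over 299 genes, and 15.7% of them were higher in CFAP20/CCNC-dKO. Genes from the BrU-seq median to that percentile, where most mitochondrial members fall, had a median of -0.36 over 2818 genes. Of these genes, 23.7% were higher in CFAP20/CCNC-dKO.

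**Figure D3:**
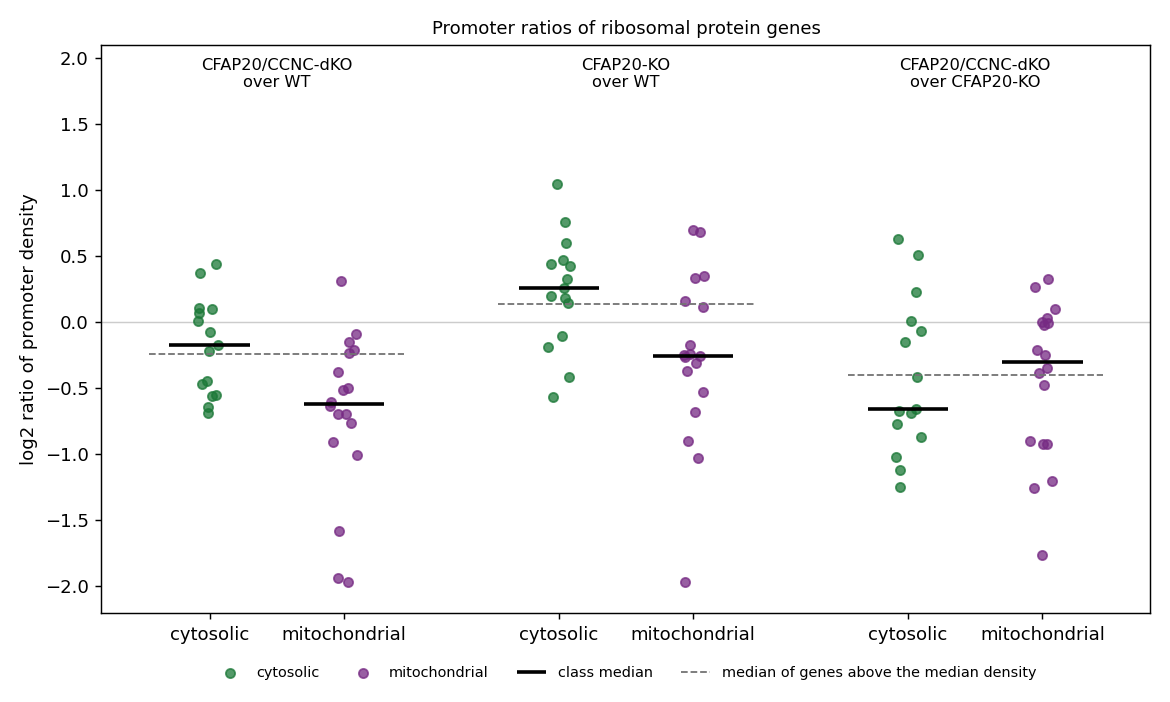
Log2 ratio of promoter density (pseudocount 0.0424) of each cytosolic and mitochondrial ribosomal protein gene in the 3 comparisons, 1 point per gene, with the class median (black) and the median of genes above the median promoter density (dashed). Against WT, mitochondrial medians (-0.62 and -0.25) lie under cytosolic medians (-0.17 and 0.26); in CFAP20/CCNC-dKO over CFAP20-KO the cytosolic median (-0.66) lies under the mitochondrial one (-0.30). The point at -1.96 is MRPL23, which had no density in either knockout.

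Counted at 1.5-fold relative to the median ratio of all genes, 2 cytosolic members were higher in CFAP20/CCNC-dKO than in WT (RPL11 and RPL39L) and 0 of 18 mitochondrial members, where 19.6% of all genes were. On the lower side were 0 of 15 cytosolic and 5 of 18 mitochondrial members (MRPL16, MRPL23, MRPL45, MRPS30 and MRPS33), where 20.5% of all genes were. Of the members called, RPL39L rested on 5.24 equivalent fragments in CFAP20/CCNC-dKO, with a ratio interval of 0.435 to 3.90, and MRPL23 on 0. With so few members, each share differs from the background by at most a few genes. Among genes above the median density and relative to their own median, 1 of 14 cytosolic and 0 of 17 mitochondrial members were higher (background 18.8%), and 0 of 14 cytosolic and 4 of 17 mitochondrial members were lower (background 16.7%).

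MRPL16 had the lowest ratio of CFAP20/CCNC-dKO to WT above the median density, 0.251 (interval 0.142 to 0.413). MRPS30, also known as PDCD9, had 0.553 in CFAP20/CCNC-dKO and 1.74 in WT, a ratio of 0.318 (0.156 to 0.581). MRPS33 had 0.879 and 1.81, a ratio of 0.487 (0.280 to 0.794). Around MRPS33, the median flank density of the 23 TSSs within 5 Mb was 0.568 times that of WT in CFAP20/CCNC-dKO and 0.531 times in CFAP20-KO, so its lower promoter density came with lower coverage of the surrounding chromosome. No other member had a local flank ratio to WT below 0.75 or above the inverse of 0.75. Among cytosolic members RPL11, which binds MDM2 when ribosome assembly is disturbed, had the highest ratio above the median density, 1.30 (0.956 to 1.74). RPS7 and RPL22 had the lowest cytosolic ratios, 0.616 (0.404 to 0.907) and 0.628 (0.353 to 1.05).

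The second comparison addresses loss of CFAP20 alone. Cytosolic members were mostly higher and mitochondrial members mostly lower in CFAP20-KO than in WT. The median log2 ratio of promoter density was 0.26 in cytosolic and -0.25 in mitochondrial members, a difference of 0.51, against -0.03 in all genes and 0.13 in genes above the median density. Density was higher in CFAP20-KO by any amount in 11 of 15 cytosolic and 6 of 18 mitochondrial members, against 47.8% of all genes. MRPL40 is among the 6 and was lower when measured on its RefSeq start. High BrU-seq genes other than the members had a median of 0.06, and genes from the BrU-seq median to the 95th percentile 0.03. In these groups 55.5% and 52.4% of genes were higher in CFAP20-KO.

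At 1.5-fold, RPL22, RPL26 and RPL35A were higher among cytosolic members and MRPS5 and MRPS10 among mitochondrial members, where 19.5% of all genes were. On the lower side were 0 of 15 cytosolic and 4 of 18 mitochondrial members (MRPL1, MRPL23, MRPS30 and MRPS36), where 24.6% of all genes were. Among genes above the median density and relative to their own median, 2 of 14 cytosolic and 0 of 17 mitochondrial members were higher (background 15.8%), and 1 of 14 cytosolic (RPS27L) and 4 of 17 mitochondrial members were lower (background 16.6%). Most of these shares lie near or below the background, and the class difference is one of medians. Measured on their RefSeq starts, MRPL1 and RPS27L did not reach 1.5-fold lower.

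RPL35A, a large subunit gene mutated in some Diamond-Blackfan anaemia families, had 3.87 in CFAP20-KO and 1.85 in WT, the highest ratio of any member, 2.08 (interval 1.499 to 2.85). RPL26 had a ratio of 1.70 (1.25 to 2.27). RPS24, with the most fragments of any member, had 1.35 (1.04 to 1.73). MRPS5 and MRPS10 had 1.63 (1.20 to 2.17) and 1.63 (1.04 to 2.47), above most mitochondrial members. MRPL1 had the lowest ratio above the median density, 0.481 (0.257 to 0.828). On its RefSeq start MRPL1 had 1.30 in CFAP20-KO and 1.52 in WT, a smaller difference. MRPS36, which is also known as KGD4 of the oxoglutarate dehydrogenase complex, had 0.527 (0.284 to 0.901), from 1.09 in CFAP20-KO and 2.06 in WT. RPS27L, the lowest cytosolic member, had 0.672 (0.428 to 1.01).

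Gene body density was higher in CFAP20-KO than in WT in 15 of 15 cytosolic and 12 of 18 mitochondrial members, against 52.7% of all genes and 75.3% of the 299 other genes above the 95th BrU-seq percentile. The median log2 ratio of gene body density was 0.27 in cytosolic members, 0.22 in mitochondrial members, 0.31 in those other genes and 0.03 in all genes. RPL19 had the largest cytosolic difference, with 1.74 in CFAP20-KO and 1.03 in WT, and RPL27 the smallest, with 1.23 in both. In CFAP20/CCNC-dKO against WT the gene body medians were 0.02 and 0.06 for cytosolic and mitochondrial members. The log2 ratio of promoter to body differed from WT by a median of -0.28 in cytosolic and -0.73 in mitochondrial members of CFAP20/CCNC-dKO, and by 0.02 and -0.30 in CFAP20-KO. All genes had -0.22 and -0.08.

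The third comparison addresses loss of CCNC on top of CFAP20, with the same labelled antibody on both sides. Most members of both classes had less promoter RNAPII in CFAP20/CCNC-dKO than in CFAP20-KO, and the cytosolic median was the lower one. The median log2 ratio was -0.66 in cytosolic and -0.30 in mitochondrial members, a difference of -0.36, against -0.20 in all genes, -0.40 in genes above the median density and -0.54 in other genes above the 95th BrU-seq percentile. Density was higher in CFAP20/CCNC-dKO by any amount in 4 of 15 cytosolic and 4 of 18 mitochondrial members, against 41% of all genes. The share was 15.7% in those other genes and 27.4% in genes from the BrU-seq median to that percentile. Among the members counted as higher, RPS27L, RPL37A, MRPL1 and MRPS17 were lower when measured on their RefSeq starts. The CFAP20-KO library enters this comparison and the one with WT, so a high value there moves both.

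At 1.5-fold, 2 cytosolic members (RPL37A and RPL39L) and 0 of 18 mitochondrial members were higher in CFAP20/CCNC-dKO, where 27.8% of all genes were. RPL37A was lower, not higher, in CFAP20/CCNC-dKO on its RefSeq start. Lower were 4 of 15 cytosolic (RPL22, RPL35A, RPS4X and RPS7) and 6 of 18 mitochondrial members (MRPL16, MRPL39, MRPL45, MRPS5, MRPS10 and MRPS30), where 24.3% of all genes were. Above the median density and relative to the median there, 2 of 14 cytosolic members (RPL11 and RPL37A) were higher (background 20.8%). So were 2 of 17 mitochondrial members (MRPL1 and MRPS36). RPL37A and MRPL1 were higher on their listed TSSs only. On the lower side were 3 of 14 cytosolic and 3 of 17 mitochondrial members (background 17.7%), and shares lay near the background in both directions.

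MRPL16 had a ratio of CFAP20/CCNC-dKO to CFAP20-KO of 0.284 (interval 0.147 to 0.522), the lowest of all members. RPL22 had 0.410 (0.207 to 0.787), RPL35A 0.455 (0.287 to 0.714) and RPS4X 0.487 (0.287 to 0.817). MRPL45 and MRPS5 had 0.397 (0.156 to 0.955) and 0.430 (0.276 to 0.662). At the other end, RPL39L had 1.70 (0.285 to 17.5), RPL37A 1.45 (0.645 to 3.53) on its listed TSS, MRPL1 1.26 (0.636 to 2.63) and RPL11 1.17 (0.748 to 1.88), with intervals on both sides of 1. Gene body density was lower in CFAP20/CCNC-dKO in 13 of 15 cytosolic and 10 of 18 mitochondrial members, against 52.5% of all genes and 233 of the 299 other genes above the 95th BrU-seq percentile. The median log2 ratio of gene body density was -0.36 in cytosolic members, -0.09 in mitochondrial members and -0.32 in those other genes.

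The mean profile of cytosolic members was highest 170 bp after the TSS in CFAP20/CCNC-dKO and 90 bp after it in CFAP20-KO and WT, at densities of 2.60, 3.79 and 4.18. Mitochondrial members had their highest mean density of 1.45 at 110 bp in CFAP20/CCNC-dKO, 2.08 at 90 bp in CFAP20-KO and 2.82 at 110 bp in WT. WT had the narrowest peak in both classes, and its fragments were the shortest, so heights of single positions are not compared between libraries.

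**Figure D4:**
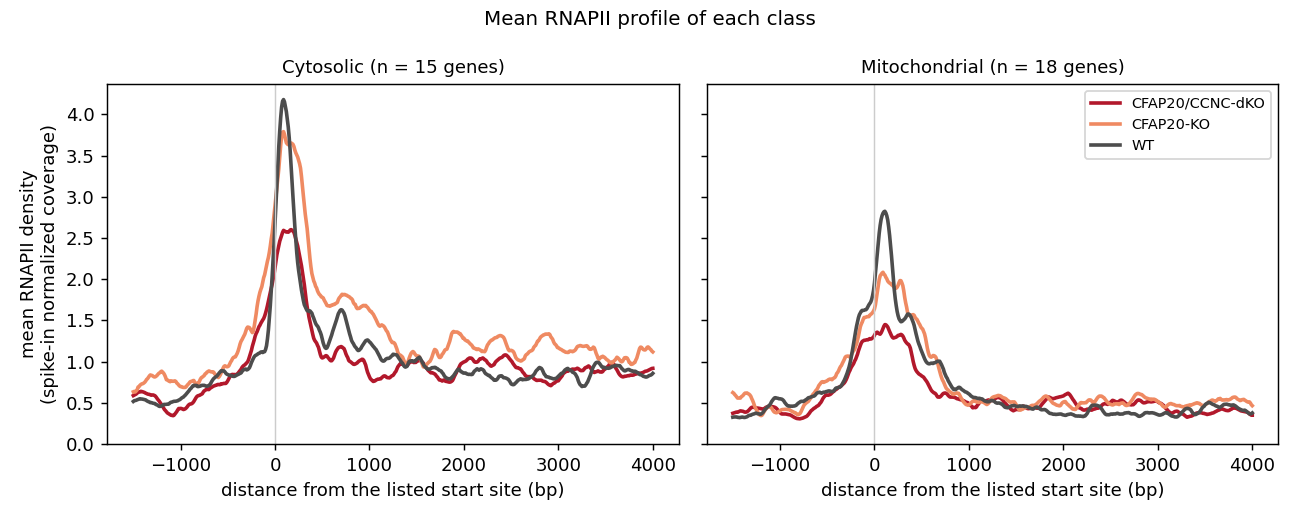
Mean RNAPII density of 15 cytosolic (left) and 18 mitochondrial (right) ribosomal protein genes by distance from the listed TSS, running mean over 50 bp, in CFAP20/CCNC-dKO, CFAP20-KO and WT, 1 library each. The CFAP20-KO line stays above the others past 500 bp in much of the cytosolic panel, and the WT peak is the narrowest in both panels.

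The spread between WT libraries can be seen only for 6 members that lie within 100 kb of a listed replication origin, in bins of 200 bp. Their promoter density over flank density was, in WT replicates 1, 2 and 3, 3.09, 4.77 and 4.60 for RPL6, 3.64, 2.84 and 4.11 for RPS14, and 3.94, 1.80 and 6.31 for MRPL37. MRPL39 had 3.48, 1.24 and 3.30, MRPL45 2.81, 1.64 and 3.28, and MRPS33 4.20, 2.96 and 16.8. RPS14 and the 4 mitochondrial members were lowest in replicate 2, and RPL6 was highest there. The median of the 6 was 3.41 ± 1.03 (SD, n = 3 libraries), and all 1791 TSSs in these windows had medians of 1.62, 1.58 and 2.11 in replicates 1, 2 and 3.

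Between pairs of WT libraries, promoter log2 ratios of these 6 members, relative to the median of all TSSs in the windows, ran from -1.01 to 0.76. The median of the 2 cytosolic members minus that of the 4 mitochondrial members was -0.74 for replicate 1 over 2, 0.23 for replicate 1 over 3 and 0.94 for replicate 2 over 3. Class differences of 0.44, 0.51 and -0.36 between genotypes lie within this range, but they are medians over 15 and 18 members in 10-bp bins. Medians of 2 and 4 members in 200-bp bins vary more, so this range cannot decide how the class differences stand to the spread between libraries. No difference between genotypes was shown to exceed the spread between libraries. The sources used here do not give the normalization of the origin windows.

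Few other genes of protein synthesis were measured. RPL22L1, the paralog of RPL22, had a promoter density of 2.77 in CFAP20/CCNC-dKO, 3.49 in CFAP20-KO and 3.78 in WT. Of translation factors with pyrimidine-start mRNAs, 6 of 18 were measured, among them EEF1A1, the elongation factor that brings tRNAs to the ribosome, with 6.91, 9.48 and 9.67. Ribosome biogenesis had 4 of 42 and mitochondrial translation and expression 4 of 27. TFAM, which packages mitochondrial DNA and takes part in its transcription, had 1.501, 2.71 and 2.61. At 1.5-fold relative to all genes, no gene of these 3 lists was higher in CFAP20/CCNC-dKO than in WT (background 19.6%). Lower were 2 of 6 translation factors, 2 of 4 ribosome biogenesis genes and 1 of 4 genes of mitochondrial translation and expression (background 20.5%). Median log2 ratios of CFAP20/CCNC-dKO to WT were -0.65, -0.47 and -0.79 in the same order of lists. The first lies nearer the mitochondrial (-0.62) than the cytosolic class median (-0.17). Translation factors ranged from -1.39 (NAP1L1) to 0.36 (EIF3H). In CFAP20-KO against WT the list medians were -0.06, -0.15 and 0.05, and in CFAP20/CCNC-dKO against CFAP20-KO -0.67, -0.36 and -0.73. Whether the pyrimidine start relates to the class difference was not tested.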

How the data were processed

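RNAPII ChIP-seq signal from 5 libraries was used. The authors deposited it as coverage, a signal in bins. Per the file names it was spike-in normalized in 10-bp bins within 5 kb of TSSs for replicate 1 of each genotype, and given in 200-bp bins within 100 kb of origin centres for the 3 WT replicates. By the submitters' processing notes, the aligners named were BWA 0.7.17 and STAR 2.7.7a, beside HOMER 4.8.2, SAMtools 1.11, R 4.0.5, FastQC 0.11.9 and Trim Galore 0.6.5, with hg38 and BDGP6; the sources used here do not give the role of each. The BrU-seq value is the authors' deposited score with no error and no stated scale. Another 2 per-sample columns (DRIP) stayed unused.

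All 3 libraries held values for 9787 of the 9944 listed TSSs, which belong to 9767 genes. Where a gene had several TSSs, the one with the highest mean promoter density was kept. Every value was a whole multiple of 1 step (0.110 in CFAP20/CCNC-dKO, 0.181 in CFAP20-KO and 0.0444 in WT). Coverage divided by step and by the length of isolated fragments gave equivalent fragments, from 0 to 85.4, from 0 to 74.6 and from 13.4 to 461 per member. Before log2 ratios were taken, 0.0424 (10% of the median promoter density) was added to each density, which shrinks the ratios of low genes. Calls of 1.5-fold were counted relative to the median ratio. Bin order in the origin windows was taken along the strand of the nearest gene, where values matched the TSS windows (Spearman rho 0.99, against 0.52 without turning). Genes named are, in each class, the 5 highest and 3 lowest in WT, the 3 highest and 3 lowest ratios of each comparison above the median density, paralogs with restricted expression, members with a local flank ratio below 0.75 or above its inverse and members in origin windows. The members, lists and windows were chosen with earlier results of these data known. Ratios and intervals were tested on simulated fragments. Python 3.11.15, NumPy 2.4.6, pandas 2.3.3, SciPy 1.17.1 and Matplotlib 3.10.9 were used.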

Additional observations from a re-analysis of the deposited data

How the results depend on the processing

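No paired analysis was possible because the knockouts have 1 library each and no test was made. Class medians moved with the window. For CFAP20-KO against WT, the mitochondrial promoter ratio, -0.25, became -0.42 from 0 to +300 bp and -0.08 from -500 to +1000 bp. For CFAP20/CCNC-dKO against CFAP20-KO, the cytosolic log2 ratio of promoter to body, -0.18, became -0.43 with a body of +2000 to +5000 bp in genes of at least 5000 bp. The difference between the class medians kept its sign under all alternatives run, from 0.26 to 0.46 in CFAP20/CCNC-dKO against WT, 0.44 to 0.65 in CFAP20-KO against WT and -0.37 to -0.18 in CFAP20/CCNC-dKO against CFAP20-KO. The last bound came from windows on the RefSeq starts, chosen after seeing the data. Choosing another TSS could not change the difference, because each member has a single listed TSS. Scaling to median flank density shifted both classes nearly alike, so these alternatives do not bear on the sign. The cytosolic median minus that of all genes in CFAP20/CCNC-dKO against WT, 0.04, changed sign with a window of -500 to +1000 bp (-0.10), a pseudocount of 50% (-0.0022) and the local flank correction (-0.018). Counts at 1.5-fold moved. Without centring, CFAP20/CCNC-dKO against WT had 0 cytosolic members higher, 2 cytosolic lower and 10 mitochondrial lower, and CFAP20/CCNC-dKO against CFAP20-KO had 1 cytosolic higher and 8 cytosolic lower. At 2-fold, CFAP20/CCNC-dKO against WT had 0 cytosolic higher and 3 mitochondrial lower, CFAP20-KO against WT 1 cytosolic higher, 0 mitochondrial higher and 1 mitochondrial lower, and CFAP20/CCNC-dKO against CFAP20-KO 0 cytosolic higher, 1 cytosolic lower and 3 mitochondrial lower. With the wider window, 0 cytosolic and 1 mitochondrial member were higher in CFAP20/CCNC-dKO than in WT, 1 mitochondrial member was higher in CFAP20-KO than in WT, and 0 cytosolic members were higher in CFAP20/CCNC-dKO than in CFAP20-KO. Median WT promoter density was 1.60 in cytosolic and 1.20 in mitochondrial members with that window and 3.30 and 2.25 from 0 to +300 bp. The cause of these shifts was not tested. Without 1 WT replicate, the median promoter over flank density of the 6 members in origin windows was 2.94 to 3.96, and with the wider bins 2.60. Depth limits single genes in the knockouts, where a median mitochondrial member held 21.2 (CFAP20/CCNC-dKO) and 17.4 (CFAP20-KO) equivalent fragments.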
